A study of Macaca fascicularis with 16 samples.

Results

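Integrins, laminins, nidogen, syndecans and glypicans fasten cells to the matrix around them, and 42 of the 14132 genes with a single symbol on the array belonged to these families. They were every gene whose symbol opens with ITGA, ITGB, LAMA, LAMB, LAMC, SDC, GPC or NID followed by a digit, together with ITGAV, ITGAE, ITGAM and ITGAD, and for each gene the brightest of its probe sets, by the mean over all 16 arrays, was read. The 42 genes were 12 integrin alpha chains, 8 integrin beta chains, 9 laminin chains, the nidogen NID1, 4 syndecans and 5 glypicans. ITGB1BP1, ITGB1BP2 and ITGB3BP made up the other 3: they share the letters of the rule, and they encode proteins that bind integrin tails, not integrin chains. The filter on dim probe sets kept 40 of the 42 genes, out of 10706 genes kept in all, and left out ITGAD and LAMB4. ITGAL, ITGAX, ITGA4, ITGA5, LAMA5, LAMB3 and NID2 were named by no single-symbol probe set in the annotation and were not analysed here.

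Each integrin is a receptor made of an alpha and a beta chain, which binds laminin, collagen, fibronectin or a ligand on another cell outside the cell and the actin cytoskeleton inside it. Laminins are trimers of an alpha, a beta and a gamma chain and form the sheet of the basement membrane below epithelium and around vessels and smooth muscle cells, where nidogen ties them to the collagen network. Syndecans span the cell membrane and glypicans are held to it by a lipid anchor, and both carry heparan sulfate chains that bind growth factors, morphogens and matrix. In the endometrium, a basement membrane separates the glands from the stroma, and the integrins of the epithelium are known to vary over the menstrual cycle.

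The samples were total RNA of frozen endometrium from 16 postmenopausal female cynomolgus macaques (Macaca fascicularis), each hybridised to 1 Affymetrix array whose probes were designed on rhesus macaque transcripts. Animals were randomized to 4 parallel arms of 4 for 4 months. The estradiol arm received micronized estradiol at a low dose of 0.25 mg per 1800 kcal of diet, the tamoxifen arm received 20 mg of tamoxifen per 1800 kcal, the combination arm received both at these doses, and the control arm received placebo. Tamoxifen is a selective estrogen receptor modulator, which blocks the receptor in breast and acts in part as an estrogen in the uterus. Ages, how the animals became postmenopausal and the layer of endometrium sampled are not given in the sources used here.

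All 16 arrays had the same trimmed mean by the authors' scaling and medians between 58.7 and 70.3 signal units, and the correlation of log2 values between arrays ran from 0.853 to 0.971. The number of arrays, not a read depth, limits precision here. Estradiol 4 stood apart: its score for 12 smooth muscle markers, the mean deviation from the all-array mean on the log2 scale, was -3.01, against -0.037 to 0.29 in controls, and the summed signal of these markers was 8742 there, against 48538 to 57847 in controls. Tamoxifen 1 followed at -0.91. On the combination arrays the score was 0.291 to 0.438, above every control, the highest of which was 0.289. That difference in mean score, 0.26, had an exact two-sided permutation p of 0.0286, or 0.129 adjusted over 36 tests. Counts of genes that passed, and the values of some genes, are given below with and without Estradiol 4 and Tamoxifen 1. Epithelial markers (10 measured of 16 listed, EPCAM among them) summed to 5654 to 10043 signal units with estradiol, 5389 to 9891 with tamoxifen and 5905 to 7662 with the combination, against 3894 to 4451 in controls. The summed signal of 13 stromal markers was 53030.0 to 64460.1 with estradiol, 44300 to 58825 with tamoxifen and 41847 to 53893 with the combination, against 39388 to 41006 in controls. Both sums lay above every control on every treated array, and each difference in mean score had the smallest exact two-sided permutation p that 4 against 4 allows, 0.0286, or 0.129 adjusted over 36 such tests. These marker levels moved with all 3 treatments, and their part in the results below was not tested. The mean score of 15 endothelial markers was -0.20 with estradiol, 0.018 with tamoxifen and -0.014 with the combination, against 0.20 in controls (exact permutation p = 0.0286, 0.371 and 0.143), and of 8 platelet and erythrocyte markers PF4 alone was kept. No marker was at 0 on any array, as the lowest of all values was 0.0242. The actin probe sets' log2 ratio of the 3' to the 5' end, a sign of RNA integrity, was 0.57 ± 0.18 with estradiol, 0.52 ± 0.043 with tamoxifen and 0.55 ± 0.075 with the combination, against 0.92 ± 0.11 in controls (SD, n = 4 each), and its part was not tested either.

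With estradiol, 9 of the 40 genes passed an adjusted p of 0.05 against control, a share of 22.5%, where 29.7% of all 10706 genes did. Of these, 6 rose, where 16.5% of all genes rose, and 3 fell, where 13.2% of all genes fell. With tamoxifen, 5 genes rose and 2 fell, together 17.5% of the 40, where 16.2% of all genes passed (8.59% up and 7.64% down). With the combination, 5 rose and 3 fell, together 20.0%, where 19.7% of all genes passed (10.6% up and 9.09% down). The share of the 40 genes that passed thus lay near the share of all genes with tamoxifen and the combination and below it with estradiol, so these counts are no result about the families, and the values below describe single genes. The 3 comparisons share their 4 control arrays. All 3 counts include LAMA1, which passed the filter only through its treated arrays and had to be higher there. Without Estradiol 4 and Tamoxifen 1, the arrays with the lowest muscle scores, 11, 9 and 13 genes passed with estradiol, tamoxifen and the combination, or 27.5%, 22.5% and 32.5% of the 40, where 28.7%, 13.8% and 24% of all genes passed in the same fit. Neither array is in the combination or control arm, so the combination's log2 changes could not move there.

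By family, the genes that passed are listed here as a description, since the families are small and no test compared them. Of 8 measured laminin chains, 3 passed with estradiol, 1 with tamoxifen and 2 with the combination, where 29.7%, 16.2% and 19.7% of all genes passed. LAMA1 is among them in each arm, and it passed the filter only through its treated arrays and had to be higher there. Of 11 integrin alpha chains only ITGA8 passed, with estradiol, and of 8 integrin beta chains ITGB4 passed with estradiol and ITGB7 with tamoxifen and the combination. SDC1 and SDC3 passed in all 3 treated arms, out of 4 syndecans. Of 5 glypicans, GPC1 passed in all 3 arms and GPC4 with tamoxifen and the combination. With all 16 arrays fitted, no integrin chain rose in any comparison with control at that threshold. Of all genes, 16.5%, 8.59% and 10.6% rose with estradiol, tamoxifen and the combination, and on so few chains this count is no result about integrins. ITGB8 and ITGA1 rose past the threshold in some fits that left out arrays, as given below. The shares of all genes that passed, given for the laminins, apply to the counts of each family.

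**Figure D1:**
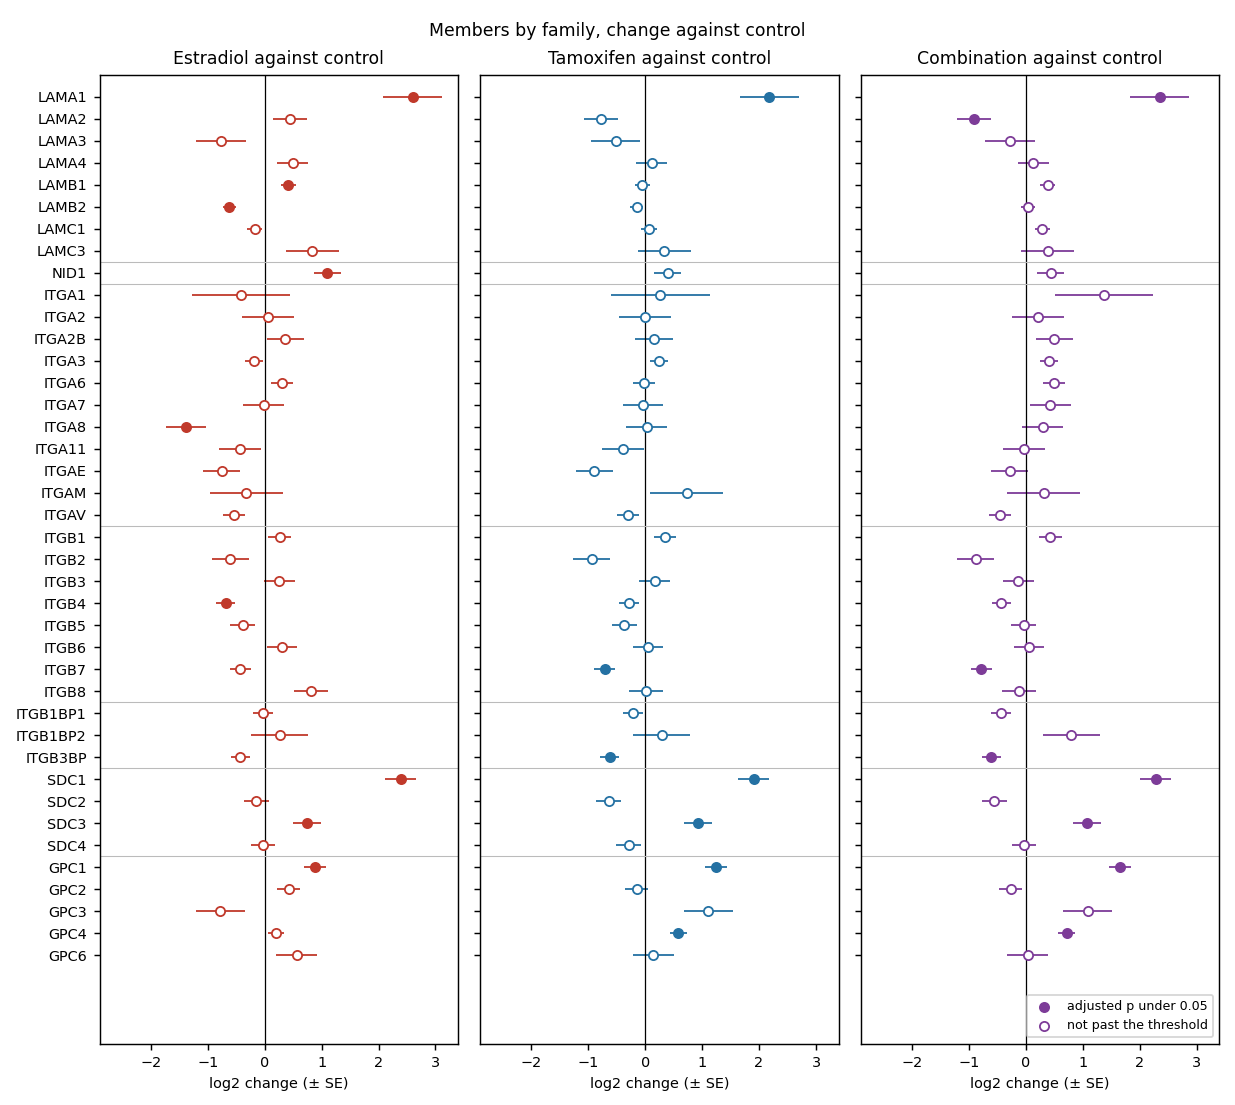
Log2 change against control of the 40 measured genes, by family from laminins at the top to glypicans at the bottom, for estradiol, tamoxifen and the combination (left to right). Points are differences between arm means of log2(signal + 4.80), bars are the standard error of limma's fit, n = 4 arrays an arm, and filled points have an adjusted p under 0.05. LAMA1, SDC1, SDC3 and GPC1 are filled to the right of 0 in all 3 panels, and no integrin chain is in any. LAMA1 passed the filter only through its treated arrays. Of all genes, 16.5%, 8.59% and 10.6% rose past the threshold in these comparisons.

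LAMA1, a laminin alpha chain of epithelial and embryonic basement membranes, had signals of 105, 147, 45.2 and 158 with estradiol, 186, 36.0, 38.4 and 119.9 with tamoxifen and 124, 131, 74.1 and 43.8 with the combination, against 18.4, 5.32, 14.7 and 16.9 in controls. Every treated array lay above every control. The log2 change was 2.60 (SE 0.52, adjusted p = 0.00224) with estradiol, 2.18 (SE 0.52, adjusted p = 0.0132) with tamoxifen and 2.35 (SE 0.52, adjusted p = 0.00766) with the combination. The mean of the controls, 4.15 on the log2 scale, is below the filter's floor of 5.36, so LAMA1 passed the filter only through its treated arrays and had to be higher there. The treated arrays also spread widely, with Tamoxifen 2 at 36.0 and Tamoxifen 1 at 186 signal units. Its other probe set was not kept.

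NID1, the nidogen that links laminin to type IV collagen, had signals of 1341, 1852, 1073 and 1417 with estradiol, 827, 853, 648 and 1157 with tamoxifen and 1322, 605, 686 and 1081 with the combination, against 681, 757, 607 and 566 in controls. All 4 estradiol arrays lay above all controls, whereas tamoxifen and combination arrays overlapped them. NID1 rose with estradiol, by a log2 change of 1.10 (SE 0.24, adjusted p = 0.00368), and its log2 change was 0.39 with tamoxifen (adjusted p = 0.291) and 0.43 with the combination (adjusted p = 0.231). A further NID1 probe set gave log2 changes of 0.95 (adjusted p = 0.00761), 0.25 (adjusted p = 0.515) and 0.32 (adjusted p = 0.367) in the same order of arms.

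LAMB1, a beta chain of early and vascular laminins, had signals of 786, 674, 785 and 1047 with estradiol, 555, 644, 501 and 654 with tamoxifen and 789.7, 816, 689 and 901 with the combination, against 608, 586, 605 and 630.4 in controls. It rose with estradiol, by a log2 change of 0.42 (SE 0.13, adjusted p = 0.0281), with no overlap between the arms. Without Estradiol 4, which had the highest value, the change was 0.30 and did not pass (adjusted p = 0.0855), nor did it without Control 1, 2 or 3. Tamoxifen arrays overlapped the controls, at a log2 change of -0.054 (adjusted p = 0.826). Combination arrays all lay above the controls at a log2 change of 0.39, which missed the threshold (adjusted p = 0.0552). A second LAMB1 probe set gave log2 changes of 0.53 with estradiol (adjusted p = 0.0315), 0.038 with tamoxifen (adjusted p = 0.908) and 0.24 with the combination (adjusted p = 0.357).

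LAMB2, the beta chain of laminins in vessels, muscle and mature basement membranes, moved the other way with estradiol. Its signals were 879, 978, 1192 and 1101 with estradiol, 1368, 1516, 1314 and 1513 with tamoxifen and 1802, 1683, 1762 and 1326 with the combination, against 1717, 1726, 1339.7 and 1590.2 in controls. The 4 estradiol arrays were the 4 lowest of the 16. LAMB2 fell by 0.62 on the log2 scale with estradiol (SE 0.12, adjusted p = 0.00206). The log2 changes with tamoxifen, -0.15 (95% interval -0.41 to 0.10), and with the combination, 0.042 (95% interval -0.22 to 0.30), did not pass.

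LAMA2, the alpha chain of the laminins around muscle cells and some stromal cells, had signals of 643, 404, 377 and 1194 with estradiol, 242, 272, 168 and 337 with tamoxifen and 204, 213, 189 and 313 with the combination, against 441, 396, 459 and 424 in controls. Combination and tamoxifen arrays all lay below all controls, and the estradiol arrays spread to both sides of them. LAMA2 fell by 0.92 on the log2 scale with the combination (SE 0.30, adjusted p = 0.0486), a call that was lost in 10 of the 16 fits that each left out 1 array, those of all 4 controls and combination 1, 2 and 3 among them (adjusted p up to 0.116). With tamoxifen the log2 change was -0.78 and missed the threshold (adjusted p = 0.0937). A second probe set of the same design sequence gave log2 changes of 0.35 with estradiol (adjusted p = 0.460), -1.37 with tamoxifen (adjusted p = 0.0119) and -1.39 with the combination (adjusted p = 0.00945). LAMA2 signal was high on Estradiol 4, where muscle markers were low, and the part of muscle in the LAMA2 values was not tested.

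LAMC1, the gamma chain of most laminins, had signals of 2058, 1915, 2459 and 1728 with estradiol, 1909, 2799, 2098 and 2905 with tamoxifen and 3097, 2628, 2553 and 2935 with the combination, against 2256, 2407, 2276 and 2207 in controls. Its log2 change was -0.18 with estradiol (adjusted p = 0.368), 0.064 with tamoxifen (adjusted p = 0.797) and 0.29 with the combination (adjusted p = 0.157). The combination arrays all lay above the controls without passing the test. The other chains, LAMA3 of the epithelial anchoring laminin, LAMA4 of vessel and muscle laminins and LAMC3, passed in no comparison with control, and their arms overlapped the controls in each. Their log2 changes lay between -0.77 (LAMA3 with estradiol) and 0.83 (LAMC3 with estradiol), with standard errors of 0.27 to 0.47.

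**Figure D2:**
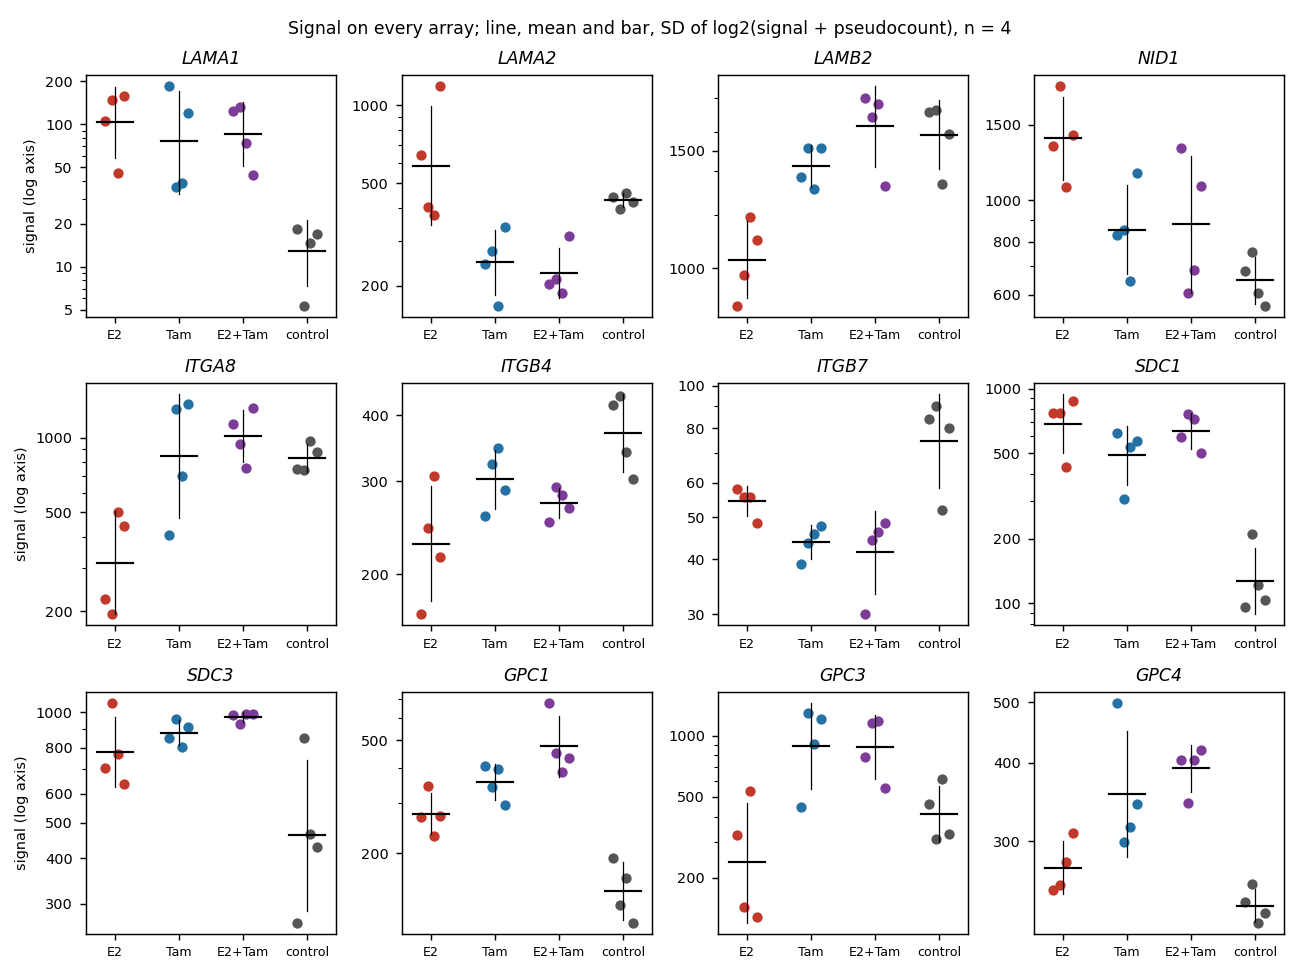
Signal on each array (points, log axis) for 12 genes in the estradiol (E2), tamoxifen (Tam), combination (E2+Tam) and control arms. Horizontal lines are arm means and vertical bars 1 SD of log2(signal + 4.80), n = 4. LAMA1, SDC1 and GPC1 lie higher in every treated arm than in any control, and the estradiol arm has the lowest mean of ITGA8 and of LAMB2. LAMA1 passed the filter only through its treated arrays.

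Of the integrin alpha chains, 1 passed. ITGA8, which pairs with ITGB1 to bind nephronectin and fibronectin and is found on smooth muscle and stromal cells, had signals of 224, 195, 502 and 442 with estradiol, 407, 1307, 699 and 1359 with tamoxifen and 1138, 939, 758 and 1313 with the combination, against 745, 741, 971 and 872 in controls. All 4 estradiol arrays lay below all 4 controls, while tamoxifen arrays fell on both sides of them. ITGA8 fell by 1.38 on the log2 scale with estradiol (SE 0.36, adjusted p = 0.0111), and its log2 changes with tamoxifen (0.029) and the combination (0.30) did not pass. The smooth muscle scores of Estradiol 1 to 4 were 0.19, 0.14, 0.36 and -3.01, and the part of muscle in the ITGA8 change was not tested. In bulk tissue, fewer cells of a type and less RNA per cell cannot be told apart.

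ITGAV, the chain of the integrins that bind vitronectin and osteopontin, had signals of 386, 501, 511 and 393 with estradiol, 557, 475, 451 and 644 with tamoxifen and 523, 692, 370.01 and 377 with the combination, against 735, 777, 568 and 550.3 in controls. Estradiol arrays all lay below the controls, and the log2 change of -0.54 (95% interval -0.96 to -0.13) missed the threshold (adjusted p = 0.0521). It was -0.30 with tamoxifen (adjusted p = 0.331) and -0.45 with the combination (adjusted p = 0.131), where arms overlapped. ITGA6, a laminin receptor chain of the basal face of epithelium and of vessels, had signals of 1096, 1064, 952 and 928 with estradiol, 961, 564, 933 and 850.02 with tamoxifen and 1148, 994, 1697 and 930.1 with the combination, against 696, 879, 730.2 and 1007 in controls. Its log2 changes of 0.30, -0.015 and 0.50 with estradiol, tamoxifen and the combination did not pass (adjusted p = 0.284, 0.970 and 0.0937).

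ITGA1, a collagen receptor chain of muscle and stromal cells, had the largest standard error of the 40 genes. Its signals were 264, 170.4, 360.2 and 7.64 with estradiol, 42.2, 350.04, 250.5 and 332 with tamoxifen and 550.4, 387, 359.8 and 379 with the combination, against 83.8, 117, 304 and 201 in controls. Estradiol 4 and Tamoxifen 1, the arrays with the lowest muscle scores, had the lowest ITGA1 values, and the combination arrays all lay above the controls. The log2 change was -0.42 with estradiol, 0.27 with tamoxifen and 1.37 with the combination, each with a standard error of 0.86, and none passed (adjusted p = 0.764, 0.874 and 0.304). Neither array is in the combination or control arm, so leaving both out could not move the combination's change of 1.37. Only its standard error and the adjustment could change, and it passed in that fit (adjusted p = 0.0111). The change with estradiol was 0.67 there, of the opposite sign. ITGA7, a laminin receptor of muscle, and ITGB1BP2, the muscle protein melusin, were also lowest on Estradiol 4, at 109 and 21.4 signal units, and ITGAM, a chain of a myeloid receptor, was at 8.69 there. Without Estradiol 4, ITGB1BP2 rose past the threshold with estradiol, and ITGA7 and ITGAM did not pass. In that fit 26% of all genes passed with estradiol.

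**Figure D3:**
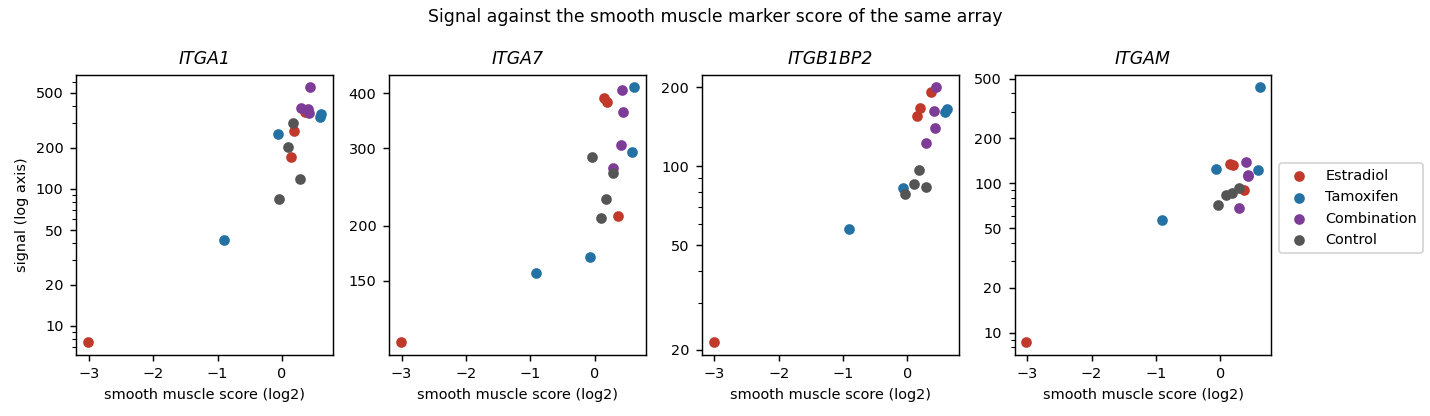
Signal of ITGA1, ITGA7, ITGB1BP2 and ITGAM (log axis) against the smooth muscle marker score of the same array (mean log2 deviation over 12 markers), 1 point per array, coloured by arm. Estradiol 4 lies far to the left at -3.01 and lowest in every panel, and Tamoxifen 1 follows at -0.91.

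Other alpha chains passed in no comparison with control: ITGA2 and ITGA11, collagen receptors, ITGA3, a laminin receptor, ITGA2B, known from platelets, ITGAE of intraepithelial lymphocytes, ITGA7 and ITGAM. ITGAE was nearest the threshold, with log2 changes of -0.75 with estradiol (adjusted p = 0.102) and -0.90 with tamoxifen (adjusted p = 0.0784). ITGA3 and ITGA2B combination arrays lay above all controls, at log2 changes of 0.41 (adjusted p = 0.0973) and 0.50 (adjusted p = 0.325). Their second probe sets gave 0.60 for ITGA3 (adjusted p = 0.0987) and -0.0039 for ITGA2B (adjusted p = 0.995) with the combination. Counted over all 40 genes, the combination arrays lay wholly above the controls for 12, or 30.0%, where this was so for 15.2% of all genes. They lay wholly below for 4, where it was so for 13.9% of all genes. The smooth muscle scores of the combination arrays also lay above every control, and their part in these counts was not tested. With estradiol, 6 genes lay wholly above (15.4% of all genes) and 4 wholly below (13.0%), and with tamoxifen 4 (11.2%) and 4 (11.6%). LAMA1, which passed the filter only through its treated arrays, is among the genes wholly above in all 3 arms.

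ITGB1, the beta chain shared by most collagen and laminin receptors, had signals of 3150.4, 3042, 4109 and 2314 with estradiol, 2283, 4189, 2883 and 4208 with tamoxifen and 3856, 3436, 3391 and 3242 with the combination, against 2593, 2798, 2028 and 2994 in controls. Combination arrays all lay above the controls. Its log2 changes of 0.26, 0.35 and 0.43 with estradiol, tamoxifen and the combination did not pass (adjusted p = 0.360, 0.258 and 0.152). ITGB3, a partner of ITGAV and a marker of the receptive human endometrium, had signals of 207, 141, 195 and 167 with estradiol, 103, 169.5, 198 and 213 with tamoxifen and 146, 79.5, 125 and 212 with the combination, against 198, 117, 143 and 138 in controls. Its arms overlapped throughout, with log2 changes of 0.25 (95% interval -0.33 to 0.83), 0.17 (-0.41 to 0.75) and -0.14 (-0.72 to 0.44).

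ITGB4, the partner of ITGA6 in hemidesmosomes at the base of epithelium, had signals of 168, 244, 307 and 216 with estradiol, 258, 323, 347 and 288 with tamoxifen and 251, 292, 283 and 266 with the combination, against 418, 434, 340.1 and 303 in controls. Estradiol arrays were low, although Estradiol 3 at 307 lay above Control 4 at 303. ITGB4 fell by 0.68 on the log2 scale with estradiol (SE 0.17, adjusted p = 0.00841), beside higher epithelial marker levels in that arm. The changes of -0.29 with tamoxifen (adjusted p = 0.279) and -0.43 with the combination (adjusted p = 0.0943) did not pass, although combination arrays all lay below the controls. With estradiol, the other ITGB4 probe sets fell by 1.12 and 1.18 on the log2 scale (adjusted p = 0.0147 and 0.0240), and passed in neither of the other arms.

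ITGB7, a chain of lymphocyte integrins that bind gut vessel and epithelial ligands, had signals of 58.1, 55.7, 55.7 and 48.4 with estradiol, 39.0, 43.6, 45.7 and 47.8 with tamoxifen and 30.0, 44.4, 46.3 and 48.4 with the combination, against 83.8, 89.9, 51.9 and 80.1 in controls. Tamoxifen and combination arrays all lay below all controls. It fell by 0.71 on the log2 scale with tamoxifen (SE 0.19, adjusted p = 0.0209) and by 0.78 with the combination (SE 0.19, adjusted p = 0.0114), and its change with estradiol was -0.43 (adjusted p = 0.102). Without Control 1, Control 2 or Tamoxifen 1 the call with tamoxifen was lost (adjusted p up to 0.0582). ITGB2, the beta chain of leukocytes, had log2 changes of -0.60, -0.94 and -0.88 with estradiol, tamoxifen and the combination, none past the threshold (adjusted p = 0.189, 0.0664 and 0.0759). Its other kept probe sets gave -0.050 and -0.95 with tamoxifen (adjusted p = 0.908 and 0.0968). The mean score of 9 leukocyte markers was 0.077 with estradiol, -0.093 with tamoxifen and -0.24 with the combination, against 0.26 in controls (exact permutation p = 0.543, 0.200 and 0.0857), and its part in these values was not tested.

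ITGB8, an activator of latent TGF-beta together with ITGAV, lay wholly above the controls with estradiol, at 636, 624, 550.2 and 1079 against 359.9, 488, 517 and 267 signal units in controls. Its log2 change of 0.81 missed the threshold (adjusted p = 0.0563). It passed without Control 3, Estradiol 3, Tamoxifen 1 or Tamoxifen 2. A second ITGB8 probe set gave 0.48 with estradiol (adjusted p = 0.303). ITGB5 and ITGB6, further partners of ITGAV, had log2 changes between -0.39 and 0.31 in the 3 comparisons with control. Of the 3 proteins that bind integrin tails, ITGB3BP passed. It is a partner of the ITGB3 tail that is also a centromere protein, and so not an integrin partner alone. Its signals were 204, 199, 156 and 243 with estradiol, 162, 124, 216 and 203 with tamoxifen and 158, 185, 167 and 191 with the combination, against 279, 244, 260.3 and 291 in controls, and all treated arrays lay below all controls. It fell by 0.62 on the log2 scale with tamoxifen (SE 0.17, adjusted p = 0.0248) and by 0.61 with the combination (SE 0.17, adjusted p = 0.0250), and with estradiol the change was -0.42 (adjusted p = 0.0778). Both calls were lost without Control 1 or Control 4, that with tamoxifen also without Tamoxifen 1 or 2 and that with the combination also without combination 1 or 3 (adjusted p up to 0.0719).

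SDC1, the syndecan of epithelia and plasma cells, had signals of 769, 768, 431 and 875 with estradiol, 619, 307, 532 and 568 with tamoxifen and 595, 761, 722 and 501 with the combination, against 96.7, 211, 122 and 104 in controls. The lowest treated array, Tamoxifen 2 at 307, lay above the highest control, Control 2 at 211. SDC1 rose in all 3 arms, with a log2 change of 2.39 (SE 0.28, adjusted p = 6.40e-05) for estradiol, 1.90 (SE 0.28, adjusted p = 0.000879) for tamoxifen and 2.28 (SE 0.28, adjusted p = 0.000241) for the combination. These are 5.24-fold, 3.74-fold and 4.85-fold on the scale of signal plus 4.80. Epithelial markers were higher in the same 3 arms, and their part in the change was not tested.

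SDC1 had 3 further probe sets past the filter, and they did not give the same sizes. The brightest set carries the suffix by which the maker marks sets whose probes may match other transcripts. Its companion from the same design sequence gave log2 changes of 1.98 with estradiol, 1.21 with tamoxifen and 1.81 with the combination (adjusted p = 0.000261, 0.0121 and 0.00105). Another gave 1.91, 1.29 and 1.72 (adjusted p = 0.00627, 0.0679 and 0.0178). The fourth gave 0.64, 0.80 and 0.47 and passed in no arm (adjusted p = 0.135, 0.0920 and 0.311).

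SDC3, a syndecan known best from the nervous system, had signals of 707, 1064, 771 and 638 with estradiol, 849, 961, 804 and 913 with tamoxifen and 985, 928, 992 and 992 with the combination, against 266, 849, 467 and 429 in controls. The combination arrays were close together and above every control, and Control 2 at 849 overlapped the estradiol and tamoxifen arms. SDC3 rose in all 3 arms, with a log2 change of 0.75 (SE 0.25, adjusted p = 0.0348) for estradiol, 0.92 (SE 0.25, adjusted p = 0.0224) for tamoxifen and 1.07 (SE 0.25, adjusted p = 0.00947) for the combination. The call with estradiol was lost without Control 1, 3 or 4 and without Estradiol 1, 2 or 3, with log2 changes of 0.49 to 0.80 (adjusted p up to 0.113), and that with tamoxifen without Control 1, where the log2 change was 0.66 (adjusted p = 0.0565), and without Tamoxifen 4 (adjusted p = 0.0522).

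SDC4, the syndecan of focal adhesions, had signals of 1037, 944, 989 and 1378 with estradiol, 1106, 835, 1097 and 636 with tamoxifen and 1127, 958, 1028 and 1191 with the combination, against 1124, 1468, 689 and 1275 in controls. Its arms overlapped, with log2 changes of -0.030 (95% interval -0.49 to 0.43), -0.29 (-0.75 to 0.17) and -0.034 (-0.49 to 0.43) with estradiol, tamoxifen and the combination. SDC2, the syndecan of fibroblasts, lay wholly below the controls with tamoxifen, at 245, 171, 165 and 226 against 357, 252, 279 and 384 signal units in controls. Its log2 change there was -0.64 and missed the threshold (adjusted p = 0.0656), and those with estradiol and the combination were -0.14 and -0.55 (adjusted p = 0.679 and 0.101). Its other kept probe sets gave -0.13 and -0.30 with tamoxifen (adjusted p = 0.828 and 0.587).

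GPC1, a glypican that acts as a co-receptor for fibroblast growth factors, had signals of 269, 346, 229.8 and 272 with estradiol, 405, 342, 397 and 297 with tamoxifen and 678, 451, 386 and 434 with the combination, against 193, 132, 165 and 114 in controls. Every treated array lay above every control. GPC1 rose in all 3 arms, with a log2 change of 0.88 (SE 0.20, adjusted p = 0.00445) for estradiol, 1.25 (SE 0.20, adjusted p = 0.00142) for tamoxifen and 1.66 (SE 0.20, adjusted p = 0.000211) for the combination. Combination arrays also lay wholly above estradiol arrays, and that log2 difference of 0.77 (95% interval 0.36 to 1.19) missed the threshold (adjusted p = 0.0636).

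GPC4, a glypican that binds Wnt and bone morphogenetic proteins, had signals of 251, 255, 278 and 309 with estradiol, 499, 299, 316 and 344 with tamoxifen and 405, 346, 404 and 419 with the combination, against 239.7, 256, 222 and 230.4 in controls. Its log2 change was 0.58 (SE 0.14, adjusted p = 0.0158) with tamoxifen and 0.72 (SE 0.14, adjusted p = 0.00448) with the combination, and it rose in both, with both arms wholly above the controls. With estradiol the log2 change was 0.20 (95% interval -0.11 to 0.50, adjusted p = 0.341), whereas a second GPC4 probe set passed in all 3 arms, with log2 changes of 0.56, 0.96 and 1.11 (adjusted p = 0.0291, 0.00337 and 0.00110) with estradiol, tamoxifen and the combination.

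GPC3, an inhibitor of hedgehog signalling and of growth, is the neighbour of GPC4 in the RefSeq gene order of the cynomolgus macaque. Its signals were 324, 143, 534 and 129 with estradiol, 446, 1296, 907 and 1215 with tamoxifen and 787, 1157, 1183 and 555 with the combination, against 463, 309.6, 611 and 328 in controls. Tamoxifen arrays ran high except Tamoxifen 1, and combination arrays ran high except combination 4, so both arms overlapped the controls. The log2 changes against control were -0.78 with estradiol, 1.11 with tamoxifen and 1.09 with the combination, each with a standard error of 0.43, and did not pass (adjusted p = 0.207, 0.102 and 0.101). GPC2 and GPC6 passed in no comparison with control, with log2 changes of -0.27 (GPC2 with the combination) to 0.56 (GPC6 with estradiol).

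**Figure D4:**
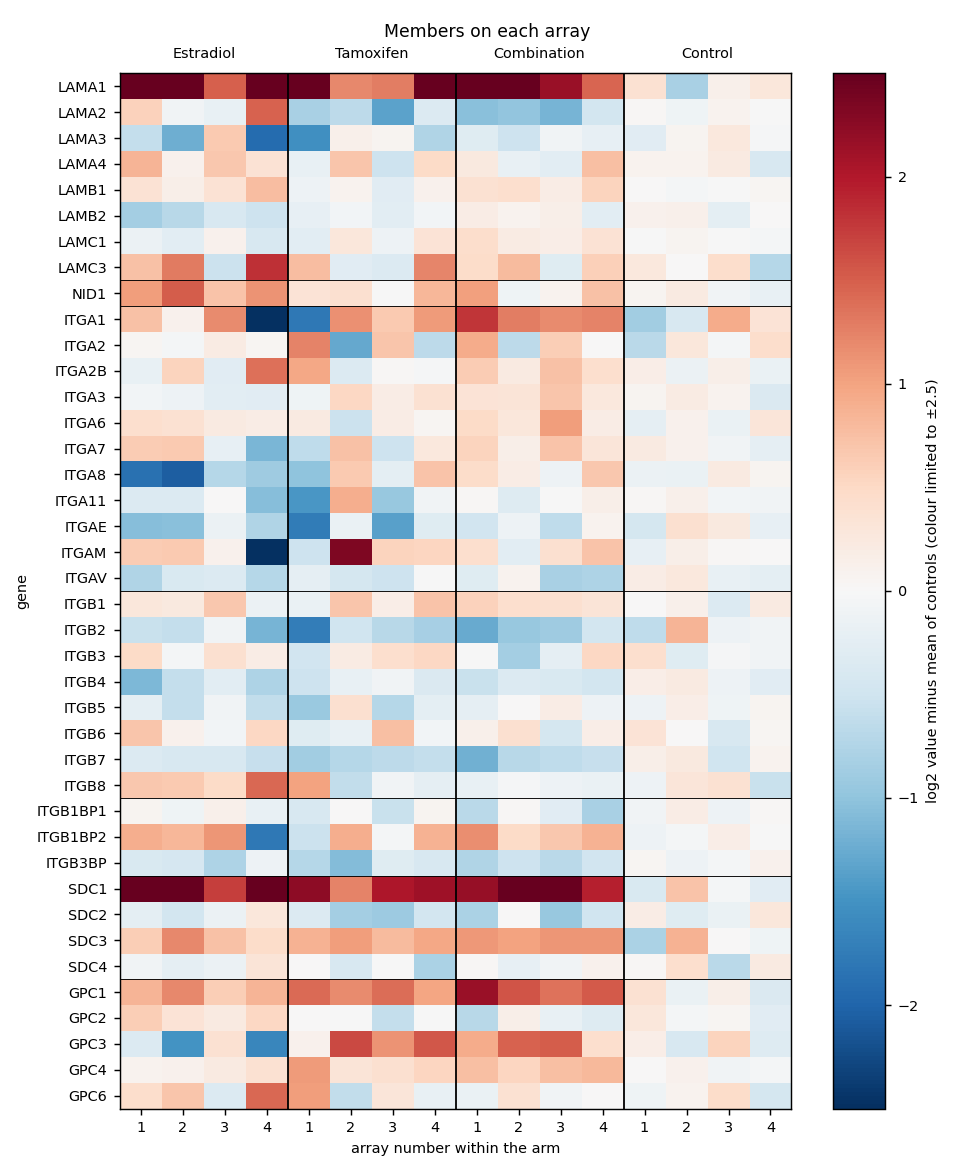
Log2 value of each of the 40 genes on each array minus the mean of the 4 controls (colour, limited to 2.5 either way), genes by family and arrays by arm. LAMA1, SDC1 and GPC1 are above the control mean on all 12 treated arrays, and ITGA1 and ITGAM reach the blue end on Estradiol 4. LAMA1 passed the filter only through its treated arrays.

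The combination against estradiol asks what tamoxifen adds to estradiol. Here 4 of the 40 genes passed, a share of 10%, where 1.33% of all genes passed: GPC3, ITGA8 and LAMB2 rose, where 0.448% of all genes rose, and LAMA2 fell, where 0.878% of all genes fell. The log2 rise was 1.68 (SE 0.36, adjusted p = 0.0374) for ITGA8, 0.66 (SE 0.12, adjusted p = 0.0217) for LAMB2 and 1.86 (SE 0.43, adjusted p = 0.0495) for GPC3, while LAMA2 fell by 1.36 (SE 0.30, adjusted p = 0.0415). All 4 had arms that did not overlap, as had 7 higher genes in all (4.06% of all genes) and 3 lower (6.38%). That share rests on 4 genes whose adjusted p-values sat close to the threshold. Leaving out 1 array at a time ended the call of GPC3 in 14 of 16 fits (all but those without Estradiol 3 or Tamoxifen 1), of LAMA2 in 9, of ITGA8 in 7 and of LAMB2 in 5 (adjusted p up to 0.141, 0.135, 0.136 and 0.0882). The call of LAMB2 was lost without Estradiol 1 or 2 and without combination 1, 2 or 3, and no gene passed without Estradiol 1 or without combination 1, 2 or 3. Without Estradiol 4 and Tamoxifen 1, ITGA8, LAMB2 and GPC4 passed, where 1.02% of all genes passed. GPC3, at a log2 difference of 1.58 (adjusted p = 0.0611), and LAMA2, at -1.02 (adjusted p = 0.0569), did not pass there. The second LAMA2 probe set fell by 1.74 on the log2 scale (adjusted p = 0.0217).

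Other genes lay apart without passing. ITGB8 combination arrays, at 346, 385, 363 and 354, lay wholly below estradiol arrays, at 636, 624, 550.2 and 1079, with a log2 difference of -0.94 (adjusted p = 0.129). GPC2 had a log2 difference of -0.69 with no overlap (adjusted p = 0.105), and ITGA3, GPC4 and LAMC1 had 0.60, 0.52 and 0.47 (adjusted p = 0.0786, 0.0846 and 0.0974). NID1 arms overlapped, at a log2 difference of -0.66 (95% interval -1.17 to -0.16, adjusted p = 0.174). The SDC1 log2 difference was -0.11 (95% interval -0.70 to 0.48).

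Tamoxifen against estradiol gave no call among the 40 genes, where 0.710% of all genes passed (0.149% up and 0.560% down). Of the 40, 12 had an unadjusted limma p under 0.05, as had 4087 of the 31660 kept probe sets. The log2 differences ran from -1.23 for LAMA2 (adjusted p = 0.0837) to 1.89 for GPC3 (adjusted p = 0.0667), and ITGA8 had 1.41 (adjusted p = 0.0972). The arms did not overlap for 1 higher gene (2.57% of all genes) and 4 lower ones (4.55%). The second LAMA2 probe set fell by 1.72 on the log2 scale and passed (adjusted p = 0.0289). Leaving out Estradiol 3 let 4 of the genes pass, and leaving out Tamoxifen 1 let 3 pass, where 2.61% and 1.34% of all genes passed.

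The combination against tamoxifen gave no call among the 40 genes by limma, and none (0%) among all genes. An unadjusted limma p under 0.05 was found for 2 of the 40 genes and for 1283 of the 31660 kept probe sets. The log2 differences ran from -0.41 (ITGAM) to 1.10 (ITGA1). LAMB1 and ITGA1 combination arrays lay wholly above the tamoxifen arrays, where 1.24% of all genes did so and 1.68% lay wholly below. The LAMB1 log2 difference was 0.44 (95% interval 0.16 to 0.72), and through its second probe set it was 0.20 (SE 0.17). Intervals for genes that passed against control were -0.21 to 0.96 for SDC1, -0.77 to 0.50 for LAMA2 and -0.50 to 1.03 for ITGA8, which leaves room for differences of either sign.

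**Figure D5:**
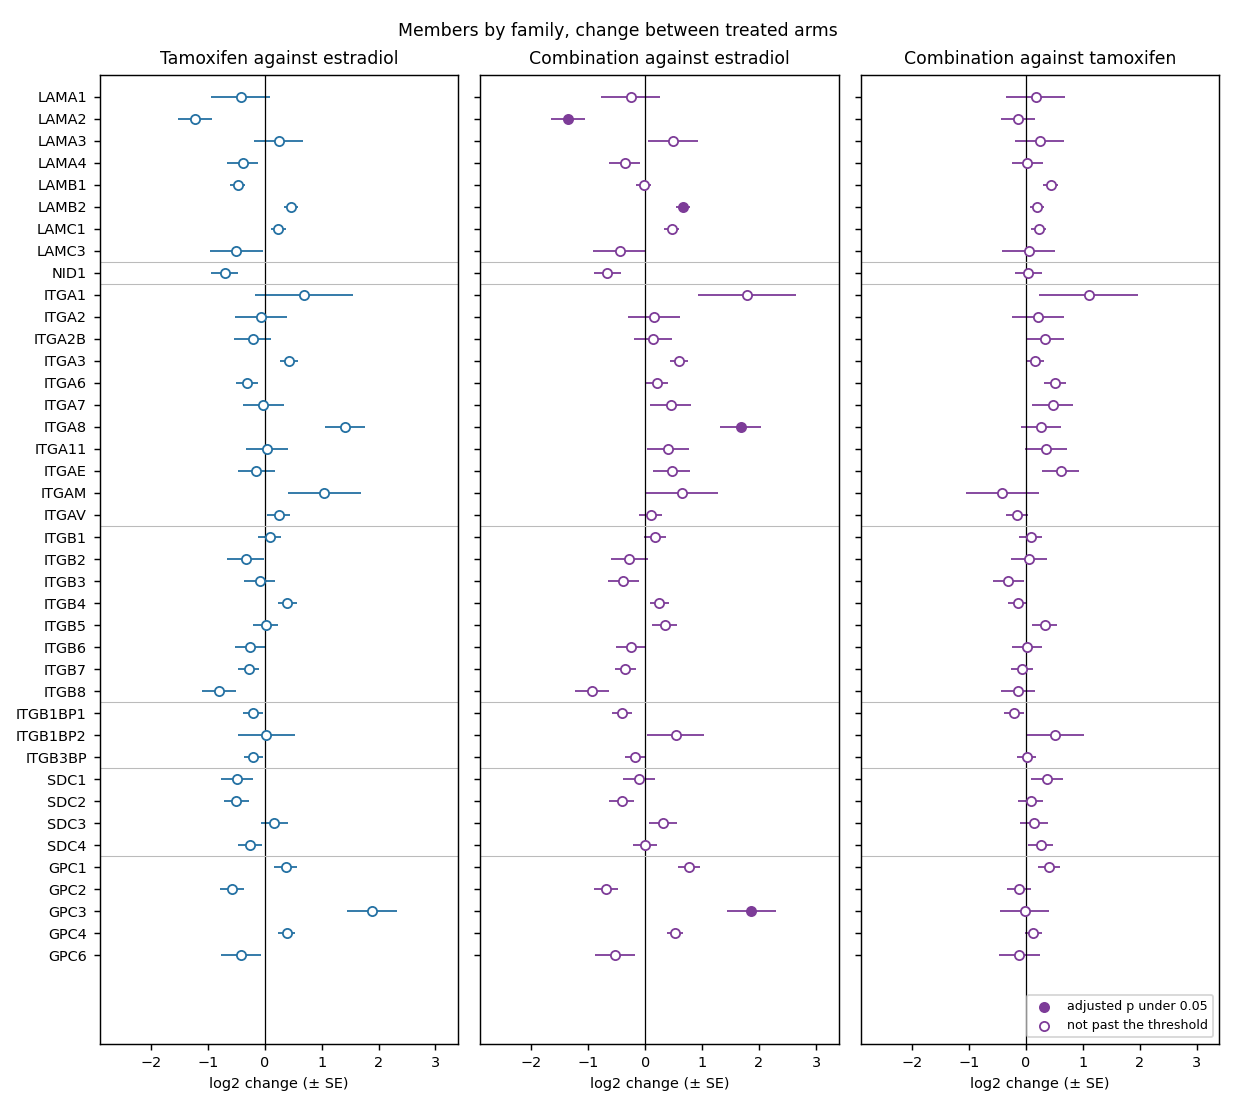
Log2 difference of the 40 genes between treated arms: tamoxifen against estradiol, combination against estradiol and combination against tamoxifen (left to right), with points, bars and families as in the plot of changes against control. Only LAMA2, LAMB2, ITGA8 and GPC3 are filled, all in the middle panel.

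The interaction compares the effect of tamoxifen given with estradiol (combination minus estradiol) with its effect alone (tamoxifen minus control). It passed for 3 of the 40 genes, 7.5%, where 11.3% of all genes passed (4.77% positive and 6.55% negative). For SDC1, tamoxifen's log2 effect was -0.11 with estradiol and 1.90 alone, an interaction of -2.01 (SE 0.39, adjusted p = 0.00715), and the further probe sets gave -1.38 (adjusted p = 0.0416), -1.48 (adjusted p = 0.153) and -0.96 (adjusted p = 0.167). For LAMA1, the log2 effects were -0.25 and 2.18, an interaction of -2.43 (SE 0.73, adjusted p = 0.0485) that was lost in 13 of the 16 fits without 1 array, all but those without Estradiol 3, Tamoxifen 2 or Tamoxifen 3 (adjusted p up to 0.0967). The effect alone is set against controls below the filter's floor, and LAMA1 passed the filter only through its treated arrays, so its interaction is a description and supports nothing. For LAMB2, they were 0.66 and -0.15, an interaction of 0.81 (SE 0.17, adjusted p = 0.0107). ITGA8 at 1.65 (adjusted p = 0.0524) and NID1 at -1.06 (adjusted p = 0.0579) came next and did not pass. GPC1 had -0.47 (95% interval -1.06 to 0.12, adjusted p = 0.301).

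Ligands and partners of these receptors were read from lists of related genes. Of 15 measured basement membrane and integrin ligand genes, 3 rose and 1 fell with estradiol, 3 rose and 2 fell with tamoxifen, and 3 rose and 2 fell with the combination. Of all genes, 16.5%, 8.59% and 10.6% rose and 13.2%, 7.64% and 9.09% fell in these comparisons, and on 15 genes the counts are no result about the list. The list's median log2 changes were 0.20, 0.37 and 0.39, beside 0.012, -0.018 and -0.013 for all genes. TNC, tenascin C, a ligand of ITGA8 and ITGAV integrins, rose by 3.33 on the log2 scale with estradiol (adjusted p = 8.47e-05), 2.01 with tamoxifen (adjusted p = 0.00556) and 2.37 with the combination (adjusted p = 0.00168). COL15A1, a collagen carrying heparan or chondroitin sulfate at basement membranes, rose by 1.35, 0.83 and 1.16 (SE 0.11 each). FN1, fibronectin, rose with estradiol by 1.44 (adjusted p = 0.00328) and fell by 1.47 in the combination against estradiol (adjusted p = 0.0342). NPNT, nephronectin, the ligand of ITGA8, fell by 0.93, 0.87 and 0.81 on the log2 scale in the 3 arms (adjusted p = 0.0128, 0.0296 and 0.0368).

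Of 24 measured adaptors that tie integrins to actin, none rose against control. Of all genes, 16.5%, 8.59% and 10.6% rose with estradiol, tamoxifen and the combination. Of the 24 adaptors, 4 fell with estradiol, 3 with tamoxifen and 2 with the combination, where 13.2%, 7.64% and 9.09% of all genes fell. On 24 genes these counts are no result about the list. TLN2, a talin that activates integrin beta chains, fell by 0.85, 0.97 and 0.93 on the log2 scale with estradiol, tamoxifen and the combination (adjusted p = 0.00325, 0.00344 and 0.00365). PXN, the adaptor paxillin, fell by 0.77 with estradiol (adjusted p = 0.000871) and by 0.44 with tamoxifen (adjusted p = 0.0381). Of 19 measured genes that build or edit heparan sulfate, 8 rose and 1 fell with estradiol, 3 rose with tamoxifen, and 6 rose and 1 fell with the combination, where 16.5%, 8.59% and 10.6% of all genes rose and 13.2%, 7.64% and 9.09% fell. The list's median log2 changes were 0.32, 0.22 and 0.10 in the same order, beside 0.012, -0.018 and -0.013 for all genes. SULF2, which removes sulfate groups from heparan sulfate outside the cell, rose by 1.14, 1.02 and 1.15 (SE 0.18 each), and B3GALT6, which builds the linker to which the chain is attached, rose by 0.89, 0.54 and 0.63 (SE 0.16 each). NOTUM, an enzyme that acts on Wnt proteins, fell by 1.67 on the log2 scale with estradiol (adjusted p = 0.0440).

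The 2 genes left out by the filter were dim by their mean over all arrays. On the log2 scale it was 5.18 for ITGAD and 4.65 for LAMB4, below the floor of 5.36. ITGAD had a mean above the floor in the tamoxifen arm alone, at 5.38. ITGAD, the neighbour of ITGAM with 1 protein-coding gene between them, ran from 18.9 to 75.9 signal units over all arrays, and LAMB4, next to LAMB1, ran from 6.93 to 50.1. Their arms overlapped the controls in all 3 comparisons, and they were not tested.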

How the data were processed

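Endometrial RNA of 16 animals was measured on 1-colour Affymetrix arrays. The authors deposited linear intensities, 1 value per probe set for each animal. They were made by MAS5, and GCOS and Affymetrix Expression Console are also named, per the submitters' processing notes. The target of the scaling is not stated in the labels. A mean trimmed by 2% at both ends came to 250.0 on every array, so changes are relative to an array's total, and the values were not normalized again. Dim probe sets are noisy under MAS5.

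The values were taken to log2(signal + 4.80), the pseudocount being the 10th percentile of all values, so a change understates that of dim genes. The 99 control probe sets and the dimmest 40% of the others, by mean over all arrays, were left out, and 31660 stayed. In R 4.3.3, limma 3.58.1 fitted 1 mean per arm over the 16 arrays together (lmFit and eBayes with a trend, 12 residual degrees of freedom, 7 comparisons). The p-values of a comparison were adjusted by Benjamini-Hochberg over every kept probe set, with a threshold of 0.05. The fit was tested on simulated data.

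Symbols came from GEO's annotation of the platform, which can be old. It gives 1 symbol to 24956 probe sets, several to 361, which were not named, and none to 27449. Of the member genes' 96 probe sets, 73 were kept. Background counts follow each of 10706 genes through its brightest probe set. Neighbouring genes were read from RefSeq's gene order for the species, where 42 of 42 symbols matched. No sequence was used, and cross-hybridisation was not examined.

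Every family member could be named. Values on every array were given for genes past the threshold and for ITGB1, ITGAV, ITGB3, ITGA1, ITGA6, ITGB4, LAMB1, LAMC1, NID1, SDC1, SDC4 and GPC1. Of each pathway list, up to 4 genes past the threshold in a comparison were named. NOTUM was the 1 gene of its list that fell with estradiol. The members, the 6 marker lists and the 3 pathway lists were chosen with earlier results of these data known. Blood vessel, leukocyte and platelet markers were scored too. Array numbers are not said to pair animals: same-numbered arrays of different arms correlated between -0.27 and 0.095 in their deviations from arm means (24 pairs). The alternatives were the filter, the pseudocount, quantile normalization, the variance trend, the probe set chosen, the arms fitted, the replicate block and the arrays left out.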

Additional observations from a re-analysis of the deposited data

Results flagged for a closer look

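In an arm of 4, an array was singled out when its gap to the nearest of the other 3 exceeded Dixon's 95% limit as a share of the arm's range, which chance does in about 1 in 20 arms. Of 160 arms examined over the 40 genes, 7 met it. Estradiol 4 was low for ITGAM, at 8.69 against 90.4 to 134 on the other estradiol arrays, and for ITGB1BP2, at 21.4 against 156 to 191, and it also had the lowest smooth muscle score, -3.01. Tamoxifen 1 was low for ITGA1, at 42.2 against 250.5 to 350.0, with a muscle score of -0.91. Tamoxifen 3 was low for GPC2, at 29.8 against 46.6 to 47.6. Combination 1 was high for ITGA1, at 550.4 against 359.8 to 387, and combination 3 was high for ITGA3, at 308 against 227 to 238. Combination 2 was low for SDC3, at 928 against 985 to 992, in an arm whose range was narrow.

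The effect of tamoxifen given with estradiol differed from its effect alone, by the interaction test, for 3 genes. The log2 difference between the 2 effects was -2.43 for LAMA1, -2.01 for SDC1 and 0.81 for LAMB2. The LAMA1 value rests on controls below the filter's floor and lost its call in 13 of the 16 fits without 1 array, and 2 of the 3 further SDC1 probe sets did not pass.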

How the results depend on the processing

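Through the second-brightest probe set, which 20 genes have, 5, 3 and 3 genes passed with estradiol, tamoxifen and the combination. There was 1 each in the combination against estradiol, tamoxifen against estradiol and the interaction. Of all genes with such a probe set, 27.1%, 14%, 16%, 1.27%, 0.634% and 10.9% passed, in the same order. Fitting the compared arms alone gave 4 (10%) with tamoxifen, 14 (35%) with the combination and 0 in the combination against estradiol. Of all genes, 10.7%, 21.9% and 0.29% passed in these fits. The combination against estradiol gave 1 without a filter and 2 without a variance trend, where 0.58% and 0.981% of all genes passed. With the combination 13 passed, and in tamoxifen against estradiol 1, when Estradiol 4 and Tamoxifen 1 were left out. Of all genes, 24% and 0.56% passed there. With the replicate number as a block, 9 genes passed with each of estradiol, tamoxifen and the combination. There were 3 in the combination against estradiol, 1 (LAMA2) in tamoxifen against estradiol and 4 in the interaction. Of all genes, 27.2%, 14.5%, 17.5%, 1.17%, 0.673% and 9.7% passed in that fit, in the same order. The animals share a number only, and 1 of 16 arrays correlated best with its own number.

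Leaving out 1 array at a time gave 7 to 14 genes with estradiol, 5 to 8 with tamoxifen, 6 to 10 with the combination, 0 to 6 for the combination and 0 to 4 for tamoxifen against estradiol, 0 throughout for the combination against tamoxifen, and 2 to 6 for the interaction. In the same fits 22.4% to 32% of all genes passed with estradiol, 10.7% to 18.1% with tamoxifen and 12.4% to 21.4% with the combination. For the combination against estradiol the range was 0.178% to 4.3%, for tamoxifen against estradiol 0% to 2.61% and for the interaction 6.75% to 16.4%. Without Estradiol 3 the estradiol count was 14 (32% of all genes) and the interaction's 6 (16.4%). Without Tamoxifen 2 the interaction's count was also 6 (12.4% of all genes). The combination against estradiol gave 6 without Tamoxifen 1, where 2.17% of all genes passed. Calls of GPC1, SDC1, GPC4, NID1, ITGA8, ITGB4 and LAMB2 against control passed in all 16 such fits, as did those of ITGB7 and SDC3 with the combination. The calls of LAMA1 against control did too, but it passed the filter only through its treated arrays.

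Sign changes touched values that had not passed. The second probe set gave log2 changes of 0.13 (ITGA1) and -0.036 (ITGA6) with estradiol, 0.11 (ITGA6) and 0.038 (LAMB1) with tamoxifen, and -0.046 (ITGA6) and 0.33 (ITGB3) with the combination. ITGA1 with estradiol was 0.67 without Estradiol 4 and Tamoxifen 1. Without single arrays the log2 ranges crossed 0 with estradiol for ITGA1 (-0.95 to 0.67) and SDC4 (-0.25 to 0.11), with tamoxifen for ITGA1 (-0.023 to 0.95), ITGA6 (-0.097 to 0.16), LAMB1 (-0.11 to 0.021) and LAMC1 (-0.030 to 0.17), and with the combination for ITGB3 (-0.36 to 0.099) and SDC4 (-0.26 to 0.11). The cause of these changes was not tested. Quantile normalization moved the median of all probe sets by less than 0.01 (log2).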
